A study of Mus musculus with 9 samples.

Results

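Hsd11b1, which encodes the enzyme that regenerates active glucocorticoid inside cells, was read together with the glucocorticoid receptor gene Nr3c1 and 5 genes known as receptor targets, Fkbp5, Tsc22d3, Sgk1, Klf9 and Zbtb16, in mouse embryonic fibroblasts. These 7 genes were chosen by symbol, with earlier results of the same libraries known. Of the 7, 6 had a row among the 16428 genes of the table, and all 6 passed the filter on low values (a mean of at least 10 over the libraries), as 14560 genes did. Zbtb16 was not analysed here. The level of Hsd11b1 was 4.07-fold higher in KO and 2.27-fold higher in CARM1i than in WT. The receptor targets did not move in 1 direction: Fkbp5 and Tsc22d3 fell in KO, Sgk1 rose, and Klf9 was not called.

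All 9 libraries have the genotype CARM1f/f ER-Cre: the cells hold loxP-flanked Carm1 together with a recombinase that becomes active on 4-hydroxytamoxifen (4-OHT). The product of Carm1 methylates arginines of histones and of nuclear receptor coactivators. The 3 WT libraries are from untreated cells, the 3 KO libraries from cells exposed to 4-OHT (2 uM), and the 3 CARM1i libraries from cells exposed to TP-064, an inhibitor of CARM1 (1 uM), all grown for 6 days. The labels name no added glucocorticoid, no vehicle group and no 4-OHT group without the floxed gene, so effects of 4-OHT and of the deletion cannot be told apart. Separate cultures per replicate are not stated, and the errors and p-values given here therefore describe variation among libraries that may be technical.

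Cortisol and corticosterone circulate beside inert 11-keto forms. The product of Hsd11b1, 11-beta-hydroxysteroid dehydrogenase type 1, reduces the inert forms in the endoplasmic reticulum with NADPH that hexose-6-phosphate dehydrogenase (H6pd) supplies there, and the type 2 enzyme (Hsd11b2) runs the opposite reaction. The steroid binds the receptor NR3C1, which waits in the cytoplasm on HSP90 chaperones, enters the nucleus and binds DNA elements made of inverted arms around a short spacer.

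Libraries held 28657018 to 35842771 reads, and values are read counts divided by the authors' size factor of the library, called normalized read counts here. Carm1 measured 1104 ± 34.1 (SD, n = 3) in WT, 758 ± 43.0 in KO and 1057 ± 64.0 in CARM1i. These are counts over the whole gene, which do not separate the floxed exons and so do not check the deletion. Of 10 fibroblast markers 9 passed the filter, and Lum, a proteoglycan gene, stayed between 2.02 and 11.8. In KO 6 of the 9 fell and 2 rose (88.9% called against 41.9% of all tested genes), and in CARM1i 3 fell and 2 rose (55.6% against 19.1%). In KO the collagen gene Col1a1 stood at 52.1% and the receptor gene Pdgfra at 62.3% of the WT mean, while fibronectin (Fn1) stood at 132%. The sum of all 10 ran from 372924 to 383441 in WT, 345844 to 364980 in KO and 351121 to 380941 in CARM1i, and the part of these changes in the results that follow was not tested. On the third principal component of the log values, the CARM1i library numbered 3 lay at 19.5 and its partners at -11.0 and -11.7. For Nr3c1, Fkbp5, Sgk1 and the metalloproteinase gene Mmp3, results that rest on that library are given with and without it. Counts over gene lists include it unless stated. In CARM1i against WT, the calls of Dcn, Foxo3, Vcam1, Ccl20, Akr1c18 and St13 within those counts ended without it.

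Hsd11b1 (ENSMUSG00000016194.14; mm10, chromosome 1, 193221634 to 193264075, minus strand) measured 72.4, 59.7 and 80.2 normalized read counts in WT replicates 1 to 3. In KO it measured 313, 250.0 and 307, and in CARM1i 194, 151 and 142. All KO values lay above all CARM1i values, and all CARM1i values above all WT values. On the scale of log2(value + 1), on which all fold changes here were fitted, KO exceeded WT by 2.02 ± 0.15 (SE), with a 95% interval of 1.71 to 2.34. CARM1i exceeded WT by 1.18 ± 0.15 (95% interval 0.87 to 1.498), and the difference of CARM1i from KO was -0.84 ± 0.15 (-1.15 to -0.53). Both comparisons with WT use the same 3 WT libraries. By size of rise, the gene ranked 11 of 14560 in KO and 22 of 14560 in CARM1i. The gene was chosen with this pattern known, so its levels, and the calls counted further on, are a description, and no p-value is given for it. In bulk RNA, fewer cells of a type and less RNA per cell cannot be told apart, for this gene and for those that follow.

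**Figure D1:**
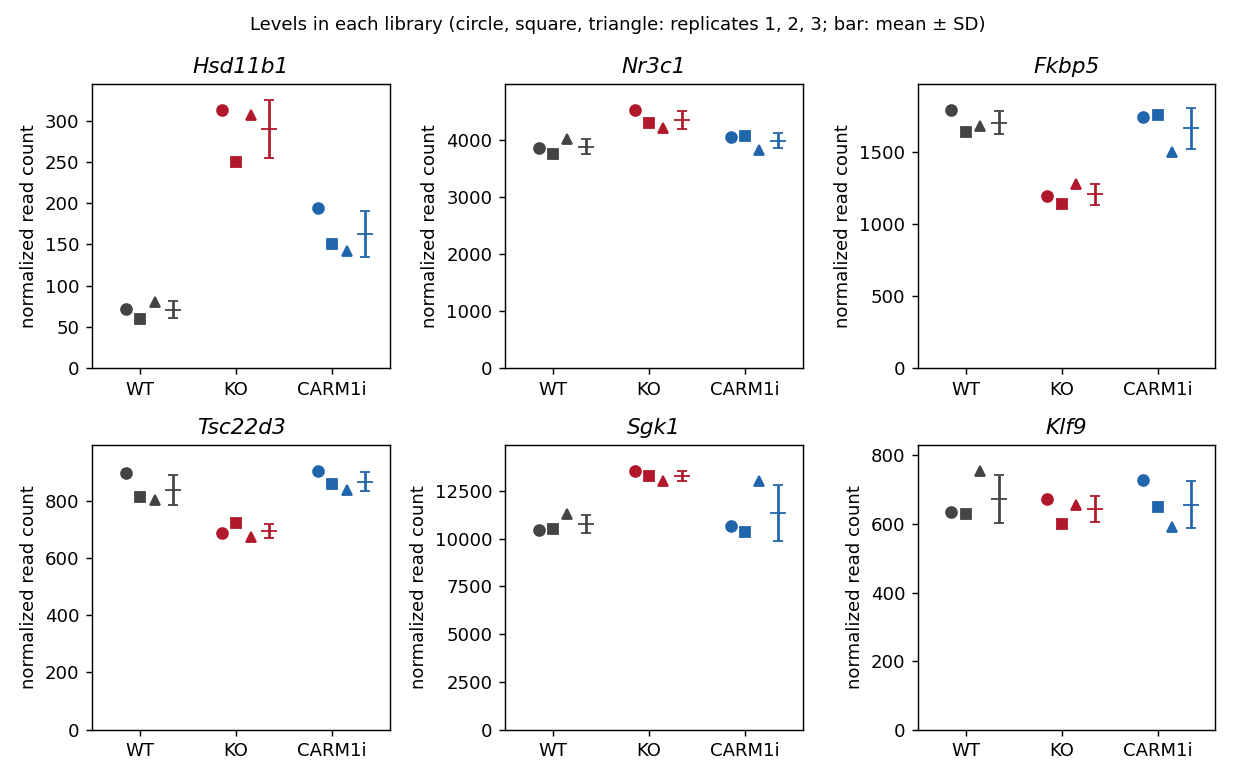
Normalized read counts (y axis, from 0) of the 6 measured genes in the WT, KO and CARM1i libraries, with 1 symbol per replicate and the mean ± SD (n = 3) beside each group. The Hsd11b1 groups do not overlap, with at most 80.2 in WT and at least 250.0 in KO, and CARM1i replicate 3 (triangle) stands near the KO libraries for Sgk1.

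The annotated body of Hsd11b1 lies inside that of Lamb3 on the opposite strand, a laminin subunit gene that was not analysed here. Although the library kit keeps strand, the strand setting of the counting is not given in the sources used here, so reads of both genes cannot be told apart. Of the 3 genes with a row within 100 kb of Hsd11b1 that do not overlap it, none was called higher. Diexf measured 561 ± 41.2 in WT, 476 ± 19.6 in KO and 488 ± 2.53 in CARM1i, and fell in KO (limma log2 fold change -0.24 ± 0.07, adjusted p = 0.01009). A130010J15Rik measured 267 ± 16.8, 232 ± 7.52 and 257 ± 16.6 and passed in neither comparison with WT (limma adjusted p = 0.09298 and 0.7537). Camk1g, a calcium-dependent kinase gene, was below the filter, with means of 7.72, 13.8 and 4.03.

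Liver and fat cells also express Hsd11b1, so their markers were read beside it. Of 5 hepatocyte markers Alb (albumin) alone had a row, with at most 13.9 in any library. Of 8 adipocyte markers, Adipoq, Plin1, Cidec, Cfd and Lep were not analysed here, and the sum of the other 3 ran from 336 to 377 in WT, 299.5 to 352 in KO and 323 to 327 in CARM1i. Among those 3, Pparg rose in KO, Lpl fell and Fabp4 did not pass. Of 8 macrophage markers 5 had a row (not Adgre1, Ptprc or Itgam), and their sum ran from 259 to 321 in WT, 304 to 341 in KO and 294 to 329 in CARM1i. Its members went both ways in KO, where Cd68 rose from 42.5 ± 12.4 to 86.0 ± 27.9 (limma adjusted p = 0.007039, with overlapping libraries) and Cd14 fell from 147 ± 17.7 to 109 ± 17.8 (adjusted p = 0.02141; the call ended without WT replicate 2 or KO replicate 2 or 3). The sum of 4 endothelial markers ran from 166 to 213, 243 to 294 and 234 to 263 in the same order. Egfl7, the largest part of it, had means of 143, 183 and 196 and passed in both. Its calls ended without WT replicate 2, and in KO also without KO replicate 2. Cdh5 (means 24.8, 37.6 and 23.8) and Kdr (20.8, 33.5 and 20.4) passed in neither, and Pecam1 was below the filter. Krt18, the one of 4 epithelial markers with a row, measured 23.3, 48.0 and 42.8 in WT, 91.9, 118 and 126 in KO and 41.5, 32.4 and 43.8 in CARM1i. The part of these cell types in the Hsd11b1 level was not tested.

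Nr3c1 (ENSMUSG00000024431.14; chromosome 18, 39410545 to 39519421, minus strand), the receptor gene itself, measured 3867, 3756 and 4020.3 in WT, 4535, 4302 and 4216 in KO and 4061, 4071 and 3833 in CARM1i. KO values lay above all others, and WT and CARM1i values overlapped. KO stood at 112% of the WT mean, a log2 difference of 0.16 ± 0.04 (95% interval 0.08 to 0.25). CARM1i differed from WT by 0.04 ± 0.04 (-0.04 to 0.12).

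Fkbp5 (ENSMUSG00000024222.16; chromosome 17, 28399094 to 28517527, minus strand) encodes FKBP51, a co-chaperone that lowers the receptor's affinity for hormone and is itself a widely used readout of receptor activity. It measured 1797, 1642 and 1679.8 in WT, 1195, 1143 and 1282 in KO and 1742, 1757 and 1501 in CARM1i. KO libraries lay below all others, at 70.7% of the WT mean. The log2 difference from WT was -0.50 ± 0.06 in KO (95% interval -0.63 to -0.37) and -0.04 ± 0.06 in CARM1i (-0.16 to 0.09). CARM1i exceeded KO by 0.46 ± 0.06. CARM1i replicate 3 was the lowest of its group, and without it CARM1i differed from WT by 0.04 and from KO by 0.54.

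Tsc22d3 (ENSMUSG00000031431.13; chromosome X, 140539528 to 140600659, minus strand) encodes GILZ, a leucine zipper protein through which glucocorticoids restrain inflammatory signalling. It measured 896, 811 and 802 in WT, 688, 721 and 674 in KO and 904, 858 and 839 in CARM1i. As for Fkbp5, the KO libraries lay below all others and WT and CARM1i overlapped. KO stood at 83.0% of the WT mean (log2 difference -0.27 ± 0.06, 95% interval -0.39 to -0.14), and CARM1i differed from WT by 0.05 ± 0.06 (-0.07 to 0.18).

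Sgk1 (ENSMUSG00000019970.15; chromosome 10, 21882184 to 21999903, plus strand) encodes a kinase of ion transport and survival that both glucocorticoids and serum induce. It measured 10465, 10508 and 11299.7 in WT, 13544, 13297 and 13002 in KO and 10666, 10355 and 13000.3 in CARM1i. KO exceeded WT with no overlap, by 0.30 ± 0.06 on the log2 scale (95% interval 0.18 to 0.43). CARM1i replicates 1 and 2 lay within or near the WT range, and replicate 3 just under the lowest KO library. CARM1i differed from WT by 0.07 ± 0.06 (-0.06 to 0.19), and by -0.03 without replicate 3. Its difference from KO was -0.24 ± 0.06, and -0.34 without replicate 3.

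The stretch before 1 of the annotated Sgk1 starts holds a full glucocorticoid receptor element, and that of Fkbp5, which moved the other way in KO, is set beside it for comparison. Both are from RefSeq (GRCm38.p6), run 250 bases 5′ to 3′ up to the start on the gene's strand, and overlap no annotated exon. Capitals mark the element.
Sgk1, chr10:21993640-21993889, plus strand: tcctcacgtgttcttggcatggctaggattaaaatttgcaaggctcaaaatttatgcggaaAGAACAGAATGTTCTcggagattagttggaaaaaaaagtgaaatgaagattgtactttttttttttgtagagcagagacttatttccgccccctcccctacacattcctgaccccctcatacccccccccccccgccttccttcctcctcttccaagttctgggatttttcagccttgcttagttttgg
Fkbp5, chr17:28486150-28486399, minus strand: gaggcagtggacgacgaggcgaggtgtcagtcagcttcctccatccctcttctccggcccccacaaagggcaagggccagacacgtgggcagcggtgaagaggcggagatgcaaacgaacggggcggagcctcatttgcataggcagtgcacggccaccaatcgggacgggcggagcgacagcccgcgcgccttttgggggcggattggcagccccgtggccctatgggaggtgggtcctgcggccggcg

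The motif searched was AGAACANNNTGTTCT, which reads the same on both strands, and its single arm TGTTCT on either strand. The full element occurred in 3 of 32851 RefSeq promoter windows of 300 bases (250 before and 50 after a start), or 0.00913%, and the Sgk1 match begins 189 bases before the start. A single arm occurred in 19% of the windows. Sgk1 had 6 windows, of which 3 held an arm, and the one with the full element held 3 arms, including both arms of the element. Tsc22d3 had 3 windows, 1 of them with an arm, and the single windows of Hsd11b1, Fkbp5 and Klf9 held none. No window of Nr3c1 or Zbtb16 was used here. These are letter matches within short windows, neither sites nor causes, and sequence farther away or in introns was not searched.

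Klf9 (ENSMUSG00000033863.1; chromosome 19, 23141226 to 23168134, plus strand), a transcription factor gene induced by glucocorticoid and thyroid hormone, measured 635, 630.3 and 755 in WT, 674, 601 and 654 in KO and 729, 651 and 589.9 in CARM1i. All 3 groups overlapped. The log2 difference from WT was -0.06 ± 0.08 in KO (95% interval -0.24 to 0.11) and -0.04 ± 0.08 in CARM1i (-0.21 to 0.14). Changes of a size within these intervals remain possible.

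**Figure D2:**
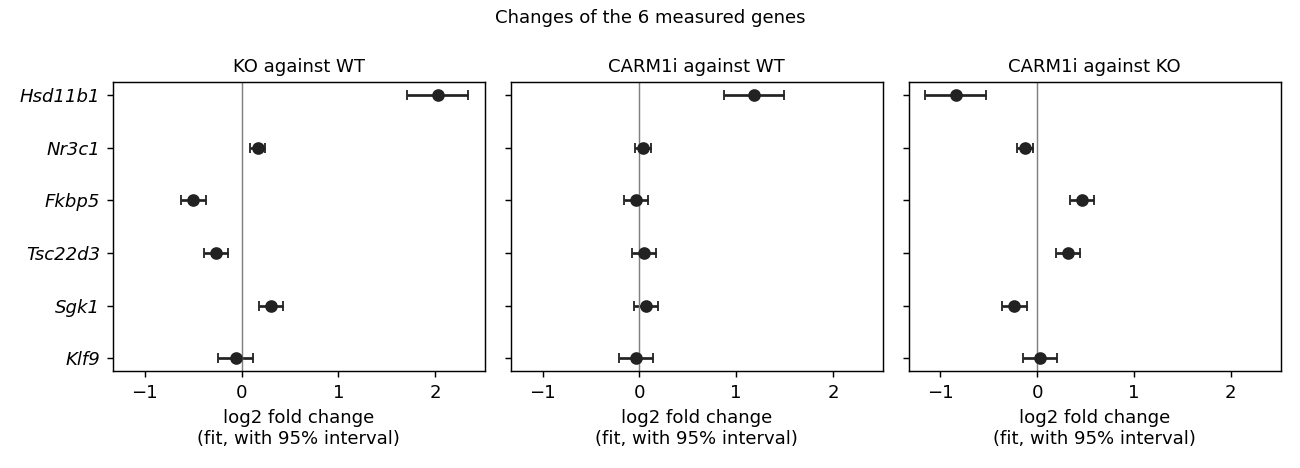
Fitted log2 fold changes (x axis) with 95% intervals for the 6 measured genes in the 3 comparisons, with 0 marked by a line. Hsd11b1 stands apart at 2.02 in KO against WT, and the intervals of the other 5 genes include 0 in CARM1i against WT.

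In the fit across all genes, 3 of the 6 genes were called higher in KO than in WT (Hsd11b1, Nr3c1, Sgk1) and 2 lower (Fkbp5, Tsc22d3), where 41.9% of all tested genes were called, 21.4% higher and 20.5% lower. The KO and WT libraries did not overlap for those 5 genes, nor for 52.6% of all tested genes. In CARM1i against WT, Hsd11b1 was called higher and the other 5 were not called, where 19.1% of all tested genes were (10.5% higher, 8.59% lower), and Hsd11b1 was the 1 gene of the 6 without overlap, against 33.4% of all. In CARM1i against KO, Fkbp5 and Tsc22d3 were called higher and Hsd11b1, Nr3c1 and Sgk1 lower, where 23.6% of all tested genes were called (12.1% higher, 11.5% lower), and those 5 did not overlap, against 36.9% of all. Since the genes were chosen with these values known, nothing is read from their counts. In CARM1i against KO, the log2 difference of Nr3c1 was -0.13 ± 0.04 with all libraries. Its call there ended without CARM1i replicate 3 (log2 difference -0.10), without KO replicate 1 and without KO replicate 2. The call of Sgk1 in CARM1i against KO ended without CARM1i replicate 2 (-0.17).

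Levels of different genes were compared per kb of annotated exon. In WT, Sgk1 was the most abundant of the 6 at 2194 ± 95.8 normalized read counts per kb, followed by Nr3c1 at 505 ± 17.3. Tsc22d3 (193 ± 11.9) and Fkbp5 (180.2 ± 8.51) overlapped and did not differ beyond their spread. Klf9 followed at 139.8 ± 14.7 per kb, and Hsd11b1 was the lowest at 16.6 ± 2.43. In KO, Tsc22d3 stood at 160.0 ± 5.48, Klf9 at 134 ± 7.89 and Fkbp5 at 127 ± 7.41 per kb, and Klf9 and Fkbp5 overlapped. Hsd11b1 was still the lowest there at 68.3 ± 8.22, and at 38.2 ± 6.60 in CARM1i.

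Genes whose pattern over the 9 libraries was most like that of a member were taken by Pearson correlation of log2 values among 10334 protein-coding genes with a mean of at least 100. The libraries form 3 groups and share their scaling, so a high correlation mostly restates the group means. For Hsd11b1 the 5 nearest were Ppp2r5b (r = 0.993), Zfyve26 (0.991), Pcyt1a (0.991), Pi4ka (0.990) and Fth1 (0.989). They share the order of the groups with smaller changes, as in Fth1, a ferritin subunit gene, with means of 19385, 35212 and 26534 in WT, KO and CARM1i. For Fkbp5 they were Pcif1 (0.986) and Tubg1 (0.985), for Tsc22d3 Pdzd8 (0.988) and Pde3b (0.976), for Nr3c1 Srr (0.974) and Glyr1 (0.970), and for Klf9 Nisch (0.967) and Copg1 (0.931). For Sgk1 they were Havcr2 (0.977) and Parp10 (0.974). Both repeat its high value in CARM1i replicate 3, with Havcr2 at 101, 82.0 and 215 and Parp10 at 3742, 3703 and 4559 in CARM1i replicates 1 to 3.

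Genes that make, inactivate or carry steroids were read next, to place Hsd11b1 among them. All gene lists here, markers included, were chosen with earlier results of these libraries known. Their called shares and p-values are therefore a description, and nothing is read from the shares. Of 17 such genes 14 were tested, and in KO 8 rose (5 without WT replicate 2), 2 fell and 4 did not pass, or 71.4% called against 41.9% of all genes, with a median log2 difference of 0.30 against -0.0043. In CARM1i 2 rose and 1 fell, or 21.4% against 19.1%. H6pd, which feeds the Hsd11b1 enzyme with NADPH, measured 1383, 1286 and 1477 in WT, 1632, 1483 and 1487 in KO and 1577, 1564 and 1433 in CARM1i. It rose in KO by 0.15 ± 0.06 (limma adjusted p = 0.04046), with a narrow gap between the groups, and in CARM1i the difference was 0.14 ± 0.06 (limma adjusted p = 0.09206). The KO call of H6pd ended when any one of WT replicates 1 and 2 and KO replicates 1 and 3 was left out. Each of these settings alone ended it too: libraries rescaled to a common total, no intensity trend in the fit, and an adjusted p under 0.01. In CARM1i, H6pd passed without WT replicate 3 or CARM1i replicate 3. The opposing gene Hsd11b2 was below the filter, at 6.03, 2.94 and 3.21 in WT, 9.73, 9.07 and 17.2 in KO and 10.1, 16.2 and 5.34 in CARM1i, where 1 read is worth 0.861 to 1.08, and it was not tested.

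The smallest adjusted p of these genes in KO belonged to Por, the reductase that passes electrons to microsomal cytochromes P450. It measured 4625 ± 181 in WT, 6456 ± 91.5 in KO and 6016 ± 337 in CARM1i, and rose in both (limma 0.48 ± 0.04, adjusted p = 1.937e-08, and 0.38 ± 0.04, adjusted p = 2.822e-06). Akr1c18, a 20-alpha-hydroxysteroid dehydrogenase gene, rose in KO from 52.5 ± 8.49 to 98.5 ± 10.9 (limma 0.90 ± 0.19, adjusted p = 0.0007241). In CARM1i it measured 84.7 ± 16.6 (limma adjusted p = 0.01618), a call that ended without any one of WT replicates 1 and 2 and CARM1i replicates 1 and 3. Akr1b3, aldose reductase, rose in KO by 0.23 ± 0.03 and Hsd17b11 by 0.38 ± 0.08, and neither passed in CARM1i (limma adjusted p = 0.8121 and 0.5912). Abcb1b, a P-glycoprotein gene whose product exports glucocorticoids, fell in both, from 824 ± 35.7 to 688 ± 24.8 in KO and 646 ± 57.5 in CARM1i (limma adjusted p = 0.004247 and 0.0009832).

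**Figure D3:**
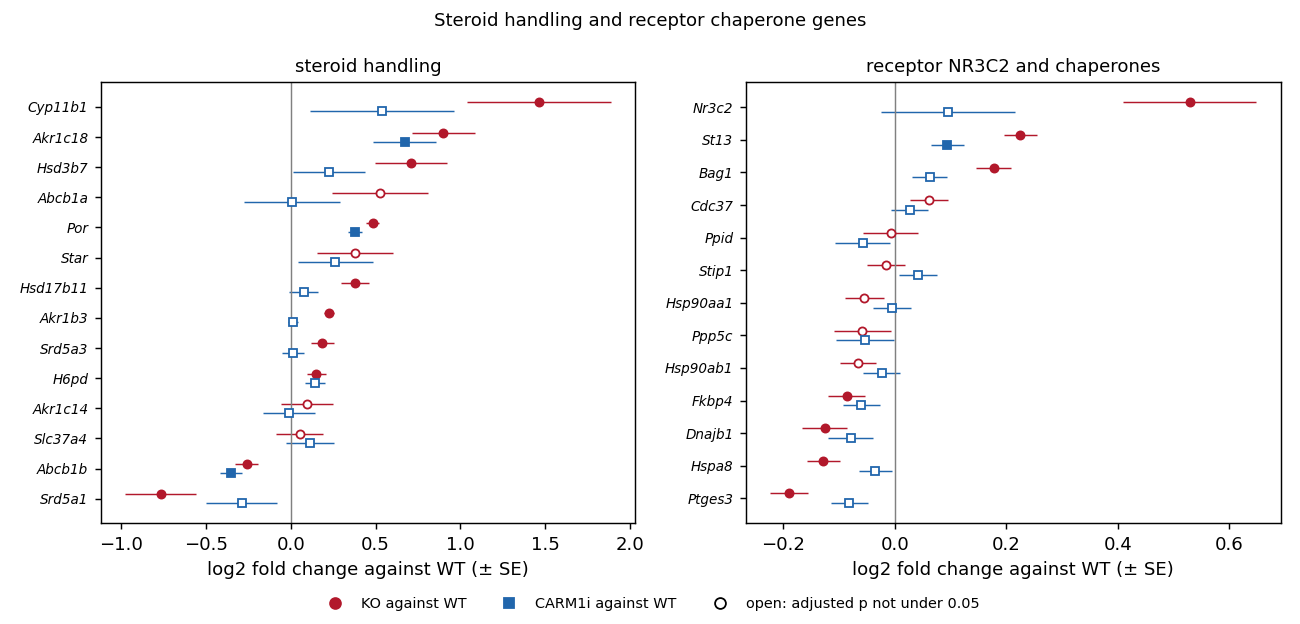
Fitted log2 fold changes against WT (x axis, ± SE) of the tested steroid handling genes (left) and of Nr3c2 with the receptor's chaperones (right), for KO (circles) and CARM1i (squares), where filled symbols passed an adjusted p of 0.05. In KO 8 of 14 steroid handling genes rose, and the chaperone genes lie between -0.19 and 0.23.

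Among 13 genes for the related receptor NR3C2 and the chaperones that hold both receptors, 3 rose, 4 fell (2 without KO replicate 3) and 6 did not pass in KO, or 53.8% called against 41.9%. In CARM1i 1 rose, St13, or 7.69% against 19.1%, and its call ended without any one of the 3 WT libraries or CARM1i replicate 1 or 3. Nr3c2, the mineralocorticoid receptor gene, whose product also binds glucocorticoid, measured 131, 129 and 122 in WT, 169, 185 and 199 in KO and 125, 138 and 146 in CARM1i. The KO rise of 0.53 ± 0.12 passed (limma adjusted p = 0.001572), and CARM1i overlapped WT (adjusted p = 0.6438). Chaperone changes in KO were small. St13, the HSP70-interacting protein HIP, rose by 0.23 ± 0.03 and Bag1 by 0.18 ± 0.03, while Ptges3, the HSP90 co-chaperone p23, fell by 0.19 ± 0.03 and Hspa8 by 0.13 ± 0.03. The HSP90 genes did not pass in KO (limma adjusted p = 0.2232 for Hsp90aa1 and 0.1163 for Hsp90ab1, which passed as a fall without WT replicate 3 or CARM1i replicate 3). Fkbp4, the paralog of Fkbp5 that favours receptor transport, measured 5063 ± 131 in WT and 4767 ± 44.5 in KO, a fall of 0.09 ± 0.03 (limma adjusted p = 0.0436) that no longer passed without any one of WT replicates 1 and 2 or the 3 KO replicates.

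Beyond the members, 40 genes known to be induced by glucocorticoid in other cells were listed, and 34 were tested. In KO 10 rose, 7 fell and 17 did not pass, with 50% called against 41.9% of all genes and a median of 0.0058 against -0.0043. In CARM1i 5 rose and 9 fell (5 without CARM1i replicate 2), or 41.2% called against 19.1%, with a median of -0.05. In CARM1i against KO 3 were higher (1 to 5 when 1 library was left out) and 13 lower (8 without KO replicate 1 or CARM1i replicate 2), or 47.1% against 23.6%. The metallothionein genes Mt1 and Mt2, which metals induce as well, had the largest KO rises among the 34 tested genes. Mt1 measured 1669, 1565 and 1796 in WT, 3106, 2839.7 and 2982 in KO and 2201, 2146 and 2371 in CARM1i (limma 0.83 ± 0.05 in KO, adjusted p = 5.319e-10). Mt2 rose by 0.88 ± 0.06 in KO and 0.35 ± 0.06 in CARM1i. Trim63, a muscle ubiquitin ligase gene, and Pdk4 were the genes of the list below the filter and were not tested. Trim63 measured 6.03, 5.87 and 2.14 in WT, 13.0, 15.1 and 15.3 in KO and 5.06, 13.3 and 9.62 in CARM1i. Pdk4 measured 5.17, 14.7 and 5.35 in WT, 5.40, 6.05 and 3.82 in KO and 11.1, 7.62 and 9.62 in CARM1i. Lpin1, a phosphatidate phosphatase gene, rose from 825 ± 36.2 in WT to 1252 ± 11.2 in KO and 1107 ± 85.6 in CARM1i.

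Nfkbia, which encodes the NF-kB inhibitor IkB-alpha, fell in both, from 1484, 1507 and 1576 in WT to 1182, 1204 and 1218 in KO and 1134, 1184 and 1163 in CARM1i (limma -0.34 ± 0.04 and -0.39 ± 0.04, adjusted p = 5.283e-06 and 5.605e-06). Cdkn1a, the cell cycle inhibitor p21, rose in KO from 3259 ± 135 to 4143 ± 30.5, and measured 3173 ± 229.7 in CARM1i (limma adjusted p = 0.6055). CARM1i against KO, the test of that difference, gave -0.39 ± 0.05 for Cdkn1a. A further 3 genes of the list were picked with their values in view. The clock gene Per1, an early receptor target, measured 352 ± 35.6, 352 ± 18.6 and 358 ± 14.9 in WT, KO and CARM1i and did not pass (limma adjusted p = 0.9756 in KO and 0.8771 in CARM1i). Dusp1, a MAP kinase phosphatase gene, fell from 779 ± 52.2 to 601 ± 38.4 in KO and 638 ± 26.1 in CARM1i. Klf15, a transcription factor gene, rose from 258 ± 40.0 to 379 ± 5.80 in KO and 389 ± 31.0 in CARM1i.

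**Figure D4:**
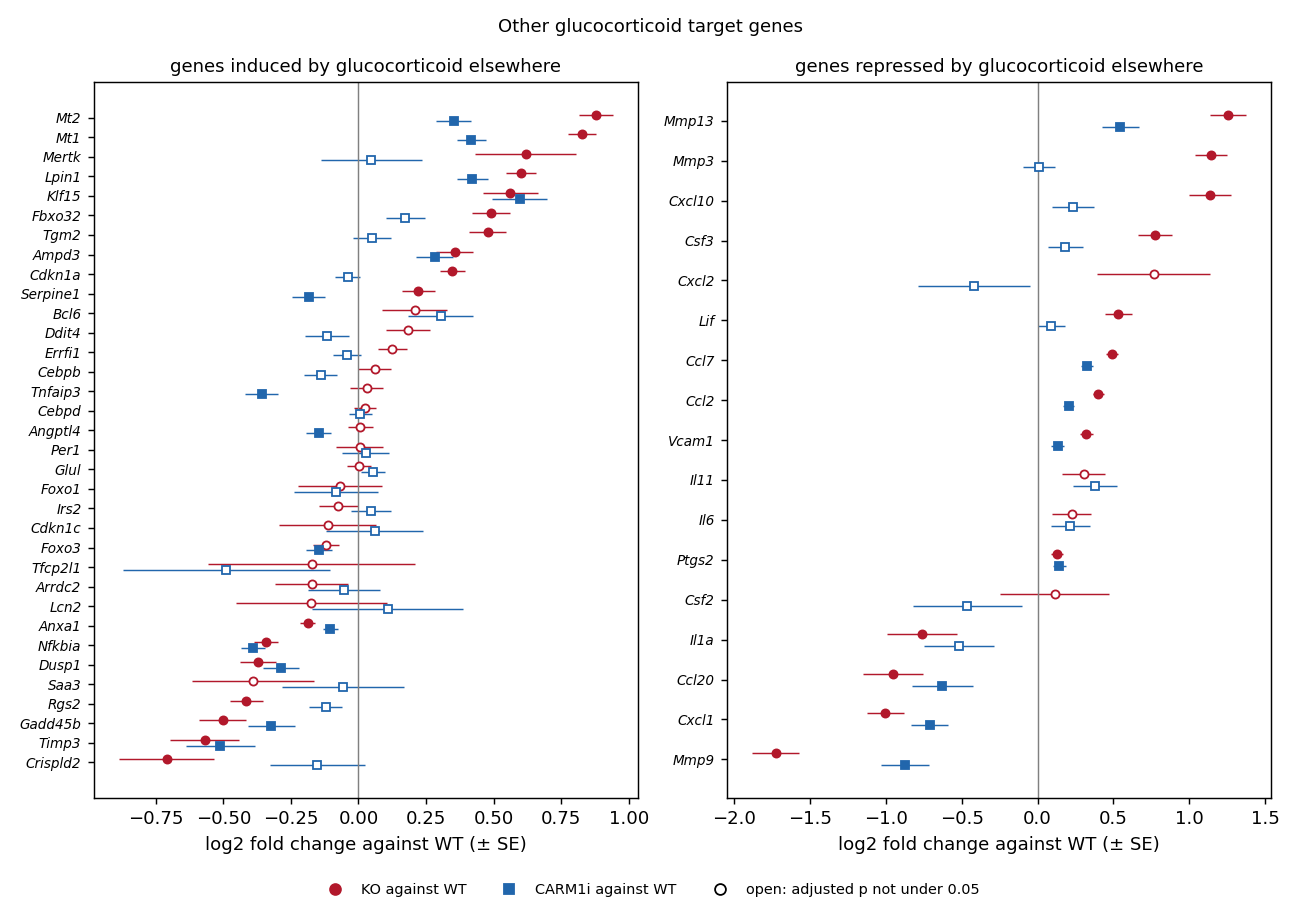
Fitted log2 fold changes against WT (x axis, ± SE) of tested genes known elsewhere as induced (left) or repressed (right) by glucocorticoid, for KO (circles) and CARM1i (squares), where filled symbols passed an adjusted p of 0.05. Both lists hold genes on either side of 0, with Mt2 at 0.88 and Crispld2 at -0.71 in KO at the ends of the induced list.

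Of 22 genes that glucocorticoid represses in other cells, most of them cytokine, chemokine and protease genes, 17 were tested. In KO 9 rose, 4 fell and 4 did not pass, or 76.5% called against 41.9%, with a median of 0.32. In CARM1i 5 rose (3 without WT replicate 2) and 3 fell, or 47.1% against 19.1%, with a median of 0.13. Without CARM1i replicate 3, the calls of Vcam1 (higher) and Ccl20 (lower) ended, and Mmp3 passed as a fall. In CARM1i against KO 1 was higher (2 without KO replicate 1 or CARM1i replicate 3) and 9 were lower, or 58.8% against 23.6%. The monocyte chemokine gene Ccl2 measured 43133, 42129 and 46532 in WT, 59386, 56877 and 57486 in KO and 51268, 49698 and 50743 in CARM1i. Its rise was 0.40 ± 0.04 in KO and 0.20 ± 0.04 in CARM1i (limma adjusted p = 5.772e-08 and 0.000493). Ccl7, of the same family, rose by 0.49 ± 0.04 and 0.33 ± 0.04.

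The metalloproteinase genes of this list went both ways. Mmp13, a collagenase gene, rose from 158, 149 and 173 in WT to 373, 420.4 and 358 in KO and 193, 239 and 276 in CARM1i. Mmp3, stromelysin 1, rose in KO from 3024 ± 138 to 6675 ± 254 (1.14 ± 0.11). In CARM1i, Mmp3 measured 2621, 2647 and 4053, with the high value in replicate 3, and the log2 difference from WT was 0.01 ± 0.11 with it and -0.20 without it, which then passed as a fall. Mmp9, a gelatinase gene, fell in both, from 189, 175 and 161 in WT to 61.6, 50.4 and 45.8 in KO and 84.0, 103 and 99.4 in CARM1i (-1.73 ± 0.16 and -0.87 ± 0.16).

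Last, 9 genes were listed for factors known to act on Hsd11b1 transcription, 8 of them tested. In KO 2 rose and 1 fell, or 37.5% called against 41.9%. In CARM1i none passed by limma (lowest adjusted p = 0.07451, for Nr1h2, which passed when WT replicate 3 or CARM1i replicate 3 was left out). The C/EBP factors are the best known of these. Cebpb measured 2498 ± 235, 2597 ± 69.1 and 2267 ± 186 in WT, KO and CARM1i, and did not pass against WT (limma adjusted p = 0.4611 and 0.1289), except as a fall in CARM1i without CARM1i replicate 1. Cebpd measured 2386 ± 55.3, 2429 ± 78.4 and 2399.7 ± 109, and Cebpa 45.1 ± 10.9, 55.6 ± 8.14 and 37.9 ± 4.71, with limma adjusted p of 0.6647 and 0.2794 in KO. Those that moved in KO were Nr1h2, the liver X receptor beta gene (limma 0.26 ± 0.05, adjusted p = 0.0002824), Nfkb1 (-0.17 ± 0.04, adjusted p = 0.0009024) and Pparg, from 82.8 ± 9.57 to 114 ± 13.1 (adjusted p = 0.03044). The Pparg call was lost on leaving out WT replicate 1 or 2, or KO replicate 2 or 3. Of the other genes of the list, Nr1h3 (7.60 ± 3.31 in WT, 14.5 ± 1.29 in KO) and Rela (1846 ± 87.8 and 1936 ± 73.3) did not pass in KO (limma adjusted p = 0.08487 and 0.2462).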

How the data were processed

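RNA of 9 libraries was sequenced with a stranded mRNA kit, per the labels. The authors deposited a normalized signal: read counts divided by a size factor per library. The software listed in the submitters' processing notes is TopHat2 (2.0.10), HTSeq (0.6.0) and DESeq (1.18.0), with build mm10. Annotation and strand setting of the counting: not given in the sources used here. In each library 100% of values were whole multiples of 1 read (tolerance 1e-06 of a read), so reads were recovered. Names, positions and exon lengths came from GENCODE M21, which matched 16413 of 16428 gene IDs without their version.

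The members and all gene lists were chosen with earlier results of these data known. Genes with a mean of at least 10 were tested on log2(value + 1) in 1 limma fit (version 3.58.1, R 4.3.3; intensity trend) of 3 groups over all 9 libraries. Benjamini-Hochberg adjustment ran over all 14560 genes, with a threshold of 0.05. Named genes are the members, Carm1, up to 5 of each pathway list by smallest adjusted p in KO against WT, H6pd, Nr3c2 and Hsd11b2, and the nearest genes by correlation. Genes near Hsd11b1, the C/EBP and HSP90 genes and single cell type markers were named after their values were seen. So were Fkbp4, Per1, Dusp1, Klf15, Trim63, Pdk4, Crispld2, Ptgs2, Foxo3, Vcam1 and Ccl20. Counts for KO against WT were simulated over 14460 genes, 200 of them changed. The fit found 71% of the changes of 1.5-fold and 84% of those of 2-fold, and 11 of its 166 calls were false. Far more genes were called in the data, so these rates need not hold there. The 21 alternatives include edgeR (4.0.16) and DESeq2 (1.42.0), both run on recovered reads; edgeR called 6150 genes in KO against WT, and limma 6100.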

Additional observations from a re-analysis of the deposited data

How the results depend on the processing

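The fit called 6100 genes for KO against WT, 2784 for CARM1i against WT and 3436 for CARM1i against KO. Leaving out the intensity trend gave 1797 for CARM1i against WT, and an adjusted p under 0.01 gave 1668 for CARM1i against WT and 2155 for CARM1i against KO; every other count stayed within 1.5 times. EdgeR called 6150, 2821 and 3471 genes, DESeq2 5650, 2611 and 3172. The members were chosen with their calls known, so what follows on them is a description. Hsd11b1 kept direction and call under all 21 alternatives in the 3 comparisons. In KO against WT so did Nr3c1, Fkbp5, Tsc22d3 and Sgk1, and in CARM1i against KO Fkbp5 and Tsc22d3. In CARM1i against KO the calls of Nr3c1 and Sgk1 ended without the intensity trend, that of Sgk1 also with DESeq2 and that of Nr3c1 also at an adjusted p under 0.01; the cause was not tested. Ptgs2, KO against WT, went from 0.13 to -0.025 under quantile normalization, and Mmp3, CARM1i against WT, ran from -0.20 to 0.12 when 1 library was left out; the cause was not tested. Same-numbered libraries did not deviate together (correlations -0.087 to 0.027). The labels do not state that the numbers pair samples, and so few libraries per group cannot settle it. With the replicate number as a block, 5865, 2553 and 3156 genes were called. Depth limits Hsd11b2, at most 17.2 normalized read counts in a library.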
